A study of Mus musculus with 16 samples.

Results

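The genes described here are the matrix metalloproteinases (MMPs), the ADAMTS proteases, the ADAMTS-like proteins (ADAMTSL) and the tissue inhibitors of metalloproteinases (TIMPs) of the mouse mammary gland. They were picked by symbol from a table of 24187 genes, and these families were chosen with earlier results of these data known. The table held 51 of them: 23 Mmp, 4 Timp, 19 Adamts and 5 Adamtsl genes. A mean of at least 1 FPKM (reads per kilobase of gene, scaled to library size) over all libraries was reached by 33, namely 12 MMPs, 4 TIMPs, 14 ADAMTS and 3 ADAMTSL genes, and these were tested. The Socs2-Δs group had 3 messenger RNA libraries and the wild-type group had 4, all from whole mammary gland at day 13 of pregnancy. Socs2-Δs mice came from CRISPR/Cas9 editing at Socs2, a cytokine-induced gene whose product restrains JAK-STAT signalling; the labels do not describe the edit further. The wild-type mice were C57BL/6 bought from a vendor, and both groups carry that strain name. The labels name no transgene, hormone or drug in either group. Genotype and source of the mice run together in this design and cannot be told apart. Titles and source names call the 3 mutant libraries Mut, although a genotype field calls them wild type; the titles were followed. Whether replicates were separate animals is not stated, and the p-values then reflect only how far these libraries spread, which may be technical. The other 9 samples of the series, ChIP-seq and DNase-seq, were not analysed here.

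MMPs are zinc-dependent endopeptidases that are made as inactive precursors and cut collagens, other matrix proteins and cell surface proteins. ADAMTS proteases are secreted relatives with thrombospondin repeats, several of which cut proteoglycans or trim procollagens; ADAMTSL proteins carry the repeats but lack the protease domain. TIMPs bind the active site of these enzymes. In the mammary gland, stromal cells make much of this set, and the enzymes and inhibitors are known for their part in ductal growth, in the spread of alveoli through the fat pad during pregnancy and in the breakdown of the gland after weaning.

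RefSeq promoter sequences of the assembly GRCm38.p6 were available for 36 of the 51 genes, 23 of them tested, in 39 promoters. Of the 9 tested genes with an unadjusted p under 0.05, the 8 with a promoter in the table are shown, 7 lower and 1, Mmp15, higher in Socs2-Δs; the other was Mmp19. Each line gives the 250 bases before the annotated start, 5′ to 3′ on the gene's strand, with motif matches in capitals. Matches were sought on both strands, except for the TATA box, sought on the gene's strand. The motifs were AP-1 (TGANTCA), a GAS element of the kind that STAT factors bind (TTCNNNGAA), PEA3 of the ETS family (AGGAAG), the GC box (GGGCGG) and the TATA box (TATAAA). Mmp3 lies at chr9:7445572-7445821 (plus strand), Mmp10 at chr9:7502092-7502341 (plus), Mmp23 at chr4:155653385-155653634 and, for a second start, chr4:155653291-155653540 (both minus), Timp1 at chrX:20869916-20870165 (plus), Timp3 at chr10:86300162-86300411 (plus), Adamts1 at chr16:85803114-85803363 (minus), Adamts2 at chr11:50601835-50602084 (plus) and Mmp15 at chr8:95352046-95352295 (plus).
Mmp3: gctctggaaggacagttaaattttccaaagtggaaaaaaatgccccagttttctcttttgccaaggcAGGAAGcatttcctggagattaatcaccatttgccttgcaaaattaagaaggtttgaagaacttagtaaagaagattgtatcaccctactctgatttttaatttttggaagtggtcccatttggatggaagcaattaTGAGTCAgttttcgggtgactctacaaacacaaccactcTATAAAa
Mmp10: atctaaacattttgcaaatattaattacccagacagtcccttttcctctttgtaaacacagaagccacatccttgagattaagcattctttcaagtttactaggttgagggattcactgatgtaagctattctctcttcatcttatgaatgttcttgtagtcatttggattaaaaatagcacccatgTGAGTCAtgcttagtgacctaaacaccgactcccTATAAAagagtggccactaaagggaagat
Mmp23, first start: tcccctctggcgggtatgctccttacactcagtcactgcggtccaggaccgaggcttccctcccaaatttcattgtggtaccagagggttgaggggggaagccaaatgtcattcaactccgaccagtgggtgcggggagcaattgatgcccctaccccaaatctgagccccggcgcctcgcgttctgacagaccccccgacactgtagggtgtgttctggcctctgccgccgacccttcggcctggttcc
Mmp23, second start: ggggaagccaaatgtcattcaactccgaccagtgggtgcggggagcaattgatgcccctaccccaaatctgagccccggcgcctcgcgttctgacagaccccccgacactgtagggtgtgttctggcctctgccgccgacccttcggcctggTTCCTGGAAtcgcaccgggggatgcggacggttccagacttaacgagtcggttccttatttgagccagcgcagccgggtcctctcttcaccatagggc
Timp1: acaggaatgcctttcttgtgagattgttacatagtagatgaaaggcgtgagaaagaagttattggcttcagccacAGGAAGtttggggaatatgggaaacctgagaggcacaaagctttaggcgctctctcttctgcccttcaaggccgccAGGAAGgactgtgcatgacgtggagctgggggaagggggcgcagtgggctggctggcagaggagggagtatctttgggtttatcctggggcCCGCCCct
Timp3: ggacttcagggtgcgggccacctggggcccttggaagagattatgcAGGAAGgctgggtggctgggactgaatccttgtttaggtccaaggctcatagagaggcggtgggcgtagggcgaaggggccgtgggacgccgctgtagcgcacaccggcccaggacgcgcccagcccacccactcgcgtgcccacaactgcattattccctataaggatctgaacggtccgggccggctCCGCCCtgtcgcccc
Adamts1: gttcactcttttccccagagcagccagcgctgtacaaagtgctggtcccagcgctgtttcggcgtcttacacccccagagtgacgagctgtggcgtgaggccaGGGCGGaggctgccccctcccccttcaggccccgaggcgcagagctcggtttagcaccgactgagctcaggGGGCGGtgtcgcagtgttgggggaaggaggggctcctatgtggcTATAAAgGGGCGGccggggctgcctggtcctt
Adamts2: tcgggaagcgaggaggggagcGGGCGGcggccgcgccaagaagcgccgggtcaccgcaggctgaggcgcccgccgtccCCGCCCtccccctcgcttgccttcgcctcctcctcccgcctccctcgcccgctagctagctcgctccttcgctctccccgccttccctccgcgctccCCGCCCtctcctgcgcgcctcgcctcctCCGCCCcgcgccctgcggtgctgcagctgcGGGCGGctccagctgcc
Mmp15: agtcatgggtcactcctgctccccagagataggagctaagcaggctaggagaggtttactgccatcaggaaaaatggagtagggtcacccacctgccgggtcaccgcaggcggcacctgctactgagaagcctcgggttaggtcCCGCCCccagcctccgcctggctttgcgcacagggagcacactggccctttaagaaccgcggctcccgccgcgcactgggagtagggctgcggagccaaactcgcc

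The sequence TGAGTCA, a form of AP-1, stands in the promoters of Mmp3 and Mmp10, ahead of a TATA box in each. AP-1 letters were found in 8 of the 39 promoters, those of Mmp1a, Mmp1b, Mmp3, Mmp7, Mmp10, Mmp12, Mmp13 and Mmp20, and in 6.75% of all 32851 promoters. All 8 genes lie in one run of neighbouring Mmp genes on chromosome 9 of the RefSeq gene order: Mmp13, Mmp12, Mmp1b, Mmp3, Mmp1a, Mmp10, Mmp8, Mmp27, Mmp20 and Mmp7, with no other coding gene between them. The promoters of Timp1 and Timp3 hold PEA3 and GC box letters and no AP-1 letters. Those of Adamts1 and Adamts2 hold GC box letters, and that of Adamts1 also a TATA box. GC box letters were found in 20 of the 39 promoters and in 32.7% of all, PEA3 letters in 14 and in 29.5%, and TATA letters in 10 and in 7.59%. The GAS letters were found in 1 of the 39, the second Mmp23 start with TTCCTGGAA, and in 7.02% of all. A match describes these letters in this window and is not a bound site.

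Recovered depth was 21.3 to 24.5 M (mega) reads per library, alike in both groups. Socs2 itself had 17.1, 13.9 and 16.0 FPKM in the Socs2-Δs libraries, against 25.6, 22.1, 24.8 and 16.1 FPKM in the wild-type libraries; wild-type replicate 4 lay within the mutant range. Its difference was −0.46 (SE 0.19) on the log2(FPKM + 1) scale, with an adjusted p of 0.267. All 7 libraries held milk protein transcripts and luminal keratins, as mammary gland does. Replicates 3 and 4 of the wild type lay far from the remaining 5 libraries: on the first principal component (61.6% of the variance) they scored 57.1 and 77.9, against −37.7 to −15.8 for the rest. Albumin, a liver transcript, was at 80.9 and 1136.5 FPKM in these libraries and at 2.70 to 6.15 FPKM in the other 5. Results are therefore also given without them. Over the whole table, 6 of 13392 genes were called higher in Socs2-Δs (0.0448%) and 0 lower (0%) by limma with Benjamini-Hochberg adjustment over all genes at 0.05; at an unadjusted p under 0.05 there were 1222 (9.12%) and 1202 (8.98%). Without wild-type replicates 3 and 4, 169 were called higher (1.26%) and 91 lower (0.68%).

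Most of the 33 tested genes were lower in the Socs2-Δs glands, and none passed the test over all genes. Of them 25 were lower (75.8%, beside 50.4% of all genes tested) and 8 higher, with a median log2 difference (Socs2-Δs minus wild type, log2(FPKM + 1)) of −0.31, beside −0.0044 for all genes tested. In bulk tissue, fewer cells of a type and less RNA per cell cannot be told apart, and the summed fibroblast, adipocyte and macrophage markers given further on were also lower in every Socs2-Δs library. The called count was 0 of 33, with adjusted p between 0.139 and 0.990; 8 were lower (24.2%) and 1 higher at an unadjusted p under 0.05. For 10 of the 33 (30.3%) every mutant library lay below every wild-type library, beside 10% of all genes tested, and for 1 (3.03%), Mmp15, every mutant library lay above, beside 12.5% of all genes. The 10 were Mmp2, Mmp3, Mmp19, Mmp23, Mmp27, Timp1, Timp2, Timp3, Adamts2 and Adamtsl1. Mmp27 and Adamtsl1 averaged under 1 FPKM in Socs2-Δs and passed the limit only through the wild-type group, where they were higher, so that these 2 add nothing to the count. Mmp27, Adamtsl1 and likewise Mmp12 (Socs2-Δs mean 0.808 FPKM) are also among the 25 lower genes and add nothing there. Adamts17, among the 8 higher, passed the limit only through Socs2-Δs (wild-type mean 0.893 FPKM). The shares were not computed again without these genes. Without wild-type replicates 3 and 4, 26 were lower (78.8%, beside 44.9% of all genes) with a median of −0.46 (all genes 0.031), 18 of 33 lay below both remaining wild-type libraries (54.5%, beside 18.1% of all genes) and 2 above (6.06%, beside 21.8%), and 1, Mmp23, was called. Mmp27 and Adamtsl1 are among those 26 and those 18 and add nothing there either. In a fit that weights each library by its agreement with its group, 736 genes of the table were called lower (5.5%) and 635 higher (4.74%). Of the 33, 6 were then called lower and none higher: Mmp2, Mmp14, Mmp19, Mmp23, Mmp28 and Timp1. That fit gave wild-type replicates 3 and 4 weights of 0.172 and 0.173 and Socs2-Δs replicate 2 a weight of 4.76.

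**Figure D1:**
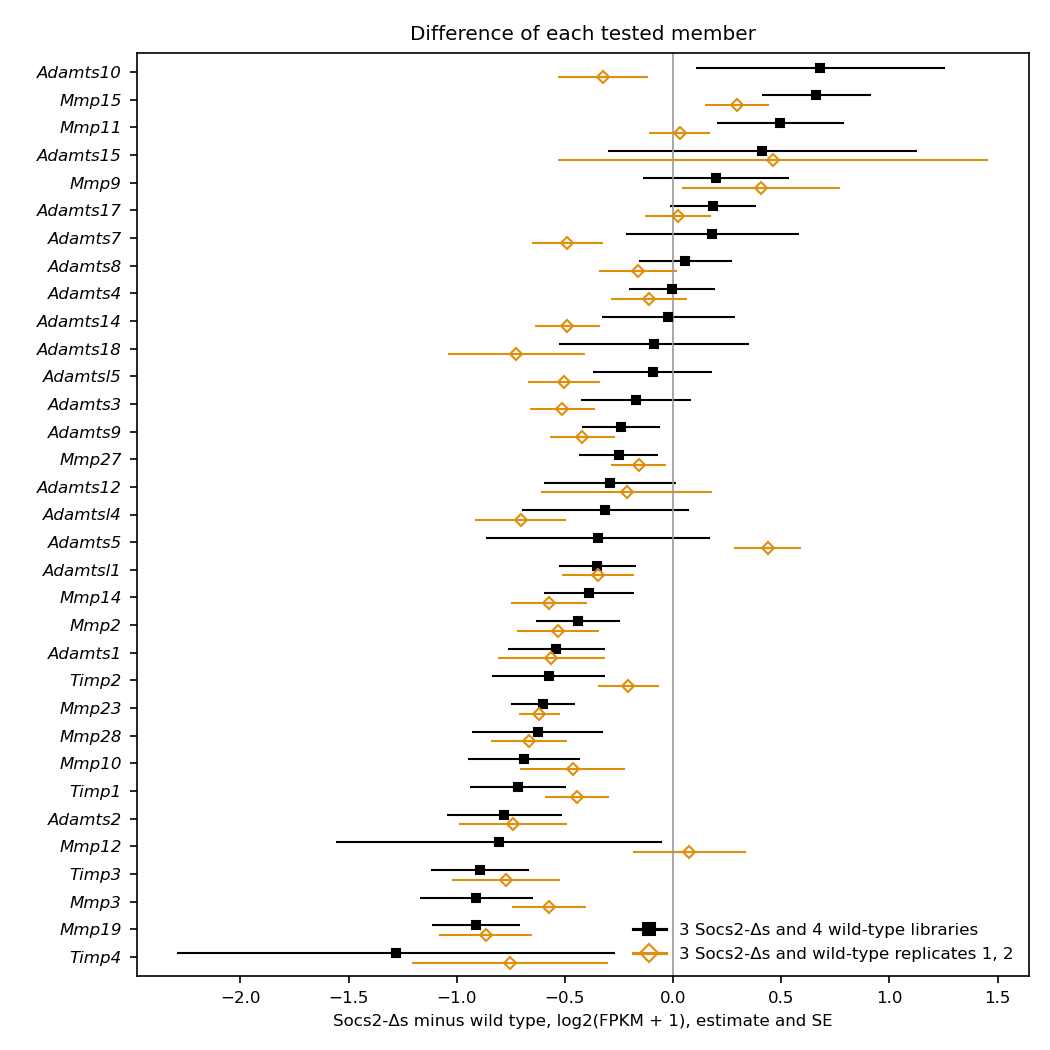
Difference of each of the 33 tested genes, Socs2-Δs minus wild type on the log2(FPKM + 1) scale, with its standard error, from all 7 libraries (squares) and without wild-type replicates 3 and 4 (diamonds). Most estimates lie left of 0 in both fits, and Adamts10, Adamts7, Adamts8, Adamts5 and Mmp12 change side between them.

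FPKM is per length, so levels of different genes can be set side by side. The tested genes had a median mean level of 5.20 FPKM over the 7 libraries, beside 9.52 FPKM for all genes tested. A mean of 50 FPKM was exceeded by 6 genes: Timp2 at 117, Mmp2 at 88.3, Timp4 at 61.8, Mmp14 at 58.3, Mmp3 at 53.9 and Timp3 at 52.7 FPKM, the Timp4 mean being set by 1 library. Mmp2, Mmp3, Mmp14 and Mmp15 together made up 83.1 to 88.2% of the summed MMP FPKM in the Socs2-Δs libraries and 80.0 to 87.3% in the wild-type libraries. Mmp14, Mmp3 and Timp3 are neighbours in this order whose ranges over the libraries overlap.

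**Figure D2:**
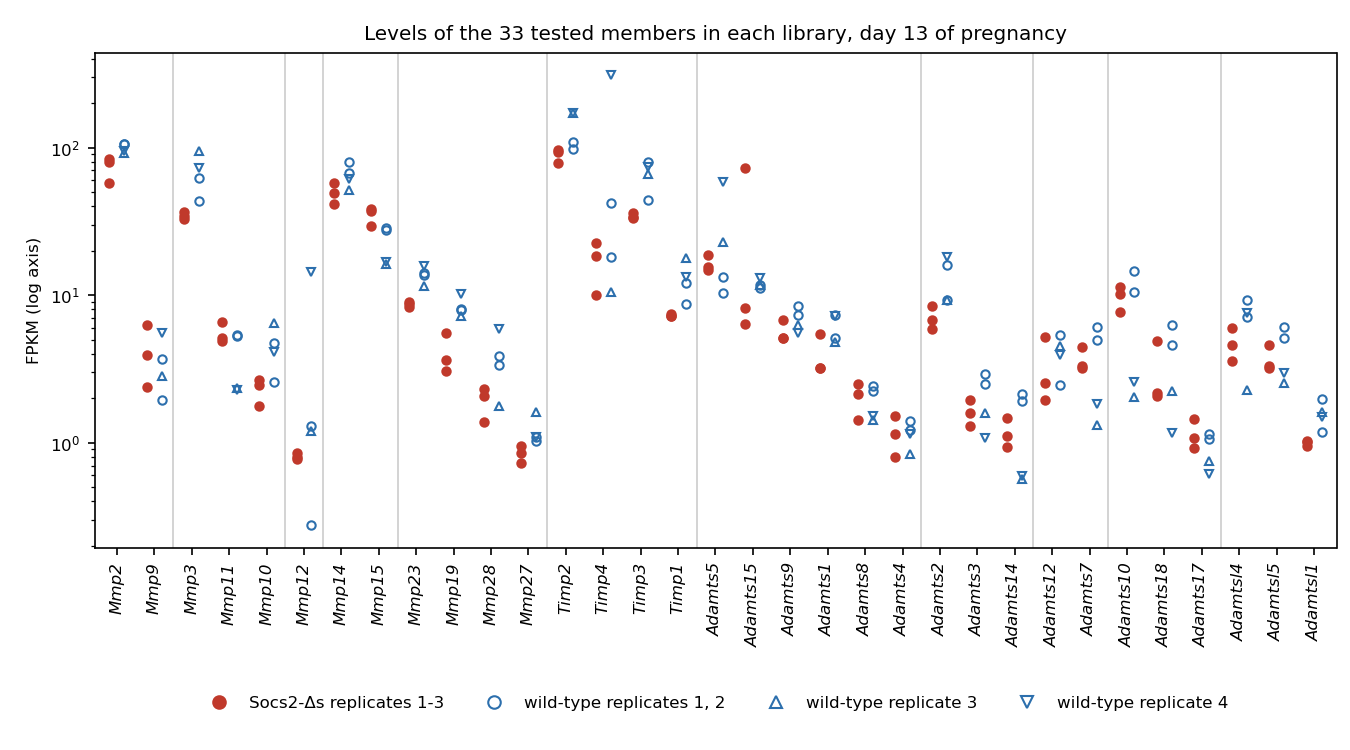
FPKM (log axis) of the 33 tested genes in each library, Socs2-Δs at left of each pair (filled) and wild type at right (open; replicates 3 and 4 as triangles), with vertical lines between functional groups. Levels span from under 1 to over 100 FPKM, and single libraries stand far from the rest for Mmp12, Timp4, Adamts5 and Adamts15.

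Values below are given in the order of replicates 1 to 3 for Socs2-Δs and 1 to 4 for wild type. Among the gelatinases, which cut denatured and basement membrane collagen, Mmp2 had 83.9, 57.3 and 79.7 FPKM in the Socs2-Δs libraries, against 105, 106, 91.5 and 94.3 FPKM in the wild-type libraries. All 3 mutant libraries were lower than all wild-type libraries, most of all replicate 2. The means were 73.6 ± 14.3 FPKM in Socs2-Δs and 99.2 ± 7.37 FPKM in wild type (SD, n = 3 and 4), and the log2 difference was −0.44 (SE 0.19, adjusted p = 0.279); without Socs2-Δs replicate 2 it was −0.27. Mmp9, the other gelatinase and an enzyme stored by neutrophils, ranged over 2.38 to 6.30 FPKM in the Socs2-Δs and 1.95 to 5.51 FPKM in the wild-type libraries, and the groups overlapped (difference 0.20, adjusted p = 0.749).

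The stromelysins activate other MMP precursors and cut proteoglycans and laminins. Mmp3 (stromelysin-1) had 36.9, 34.3 and 32.7 FPKM in the Socs2-Δs libraries, against 62.2, 43.4, 95.3 and 72.7 FPKM in the wild-type libraries. The mutant libraries were close to each other and all below the lowest wild-type library, while wild-type replicates 3 and 4 were the highest of all. The means were 34.6 ± 2.10 FPKM in Socs2-Δs and 68.4 ± 21.6 FPKM in wild type, with a log2 difference of −0.91 (SE 0.26, adjusted p = 0.178); without wild-type replicates 3 and 4 it was −0.57 (adjusted p = 0.149). Mmp10 (stromelysin-2), its close relative in the chromosome 9 run, had 2.46, 2.68 and 1.76 FPKM in Socs2-Δs glands and 4.73, 2.57, 6.44 and 4.10 FPKM in wild-type glands. Wild-type replicate 2 fell inside the mutant range, and the difference was −0.69 (SE 0.26, adjusted p = 0.239). Mmp11 (stromelysin-3), an enzyme of stromal fibroblasts, ranged over 4.86 to 6.53 FPKM in the Socs2-Δs and 2.29 to 5.35 FPKM in the wild-type libraries, and wild-type replicates 3 and 4 were the only libraries under 4.86 FPKM; without them its difference was 0.030, against 0.50 over all 7. The matrilysin gene Mmp7 had a mean of 0.152 FPKM and was not tested.

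No collagenase reached the level needed for a test. Mmp13, the most abundant of them, had 0.479, 0.434 and 0.640 FPKM in the Socs2-Δs libraries, against 0.367, 0.856, 0.720 and 0.422 FPKM in the wild-type libraries, and the groups overlapped. Mmp8, the neutrophil collagenase, had a mean of 0.0621 FPKM, and Mmp1a and Mmp1b were listed at 0 in every library. Mmp12, the metalloelastase of macrophages, had 0.852, 0.775 and 0.796 FPKM in the Socs2-Δs libraries, against 1.30, 0.277, 1.20 and 14.4 FPKM in the wild-type libraries. Wild-type replicate 4 stood alone, the gene passed the limit of 1 FPKM only through it, and without it the difference was −0.044, against −0.81 (SE 0.75, adjusted p = 0.544) over all libraries.

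The membrane-anchored MMPs act at the cell surface. Mmp14 (MT1-MMP), the activator of the Mmp2 precursor, had 57.9, 41.2 and 48.9 FPKM in the Socs2-Δs libraries, against 66.8, 80.2, 51.7 and 61.6 FPKM in the wild-type libraries. Socs2-Δs replicates 2 and 3 were below all wild-type libraries, and replicate 1 lay above wild-type replicate 3. The difference was −0.39 (SE 0.21, adjusted p = 0.335) over 7 libraries and −0.57 (adjusted p = 0.157) without wild-type replicates 3 and 4; in the weighted fit it was −0.69 (adjusted p = 0.0294). Mmp15 (MT2-MMP), which can also activate the Mmp2 precursor, was higher instead, with 37.0, 29.2 and 38.6 FPKM in the Socs2-Δs libraries, against 28.6, 27.6, 16.2 and 16.8 FPKM in the wild-type libraries. Every mutant library exceeded every wild-type library, and wild-type replicates 3 and 4 were the lowest. The means were 35.0 ± 5.03 FPKM in Socs2-Δs and 22.3 ± 6.72 FPKM in wild type, with a difference of 0.66 (SE 0.25, adjusted p = 0.241), which was 0.30 (adjusted p = 0.335) without those replicates. Mmp16, Mmp17, Mmp24 and Mmp25 had means of 0.0170 to 0.872 FPKM and were not tested.

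Of the remaining MMPs, Mmp19 and Mmp23 had the smallest p among all genes described here. Mmp19, which cuts basement membrane proteins, had 5.53, 3.61 and 3.04 FPKM in the Socs2-Δs libraries, against 8.11, 7.96, 7.27 and 10.2 FPKM in the wild-type libraries. The groups did not overlap, and the highest mutant library was replicate 1. The means were 4.06 ± 1.30 FPKM in Socs2-Δs and 8.38 ± 1.25 FPKM in wild type, with a ratio of 0.485 and a difference of −0.91 (SE 0.20, adjusted p = 0.139); without wild-type replicates 3 and 4 it was −0.87 (adjusted p = 0.107). Mmp23, which is anchored in the membrane by its N-terminal part and released by cleavage, had 8.93, 8.70 and 8.33 FPKM in the Socs2-Δs libraries, against 13.6, 14.0, 11.5 and 15.8 FPKM in the wild-type libraries. The 3 mutant libraries lay within 1 FPKM of each other and all wild-type libraries were higher. The means were 8.65 ± 0.305 FPKM in Socs2-Δs and 13.7 ± 1.78 FPKM in wild type, with a difference of −0.60 (SE 0.15, adjusted p = 0.158). Without wild-type replicates 3 and 4 it was −0.62 with an adjusted p of 0.0465, the one call among the 33 genes, where 0.68% of all genes were called lower. Mmp28 (epilysin) ranged over 1.38 to 2.31 FPKM in the Socs2-Δs and 1.77 to 5.86 FPKM in the wild-type libraries, and Mmp27, a gene of the chromosome 9 run, over 0.727 to 0.954 FPKM in the Socs2-Δs and 1.03 to 1.62 FPKM in the wild-type libraries without overlap.

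**Figure D3:**
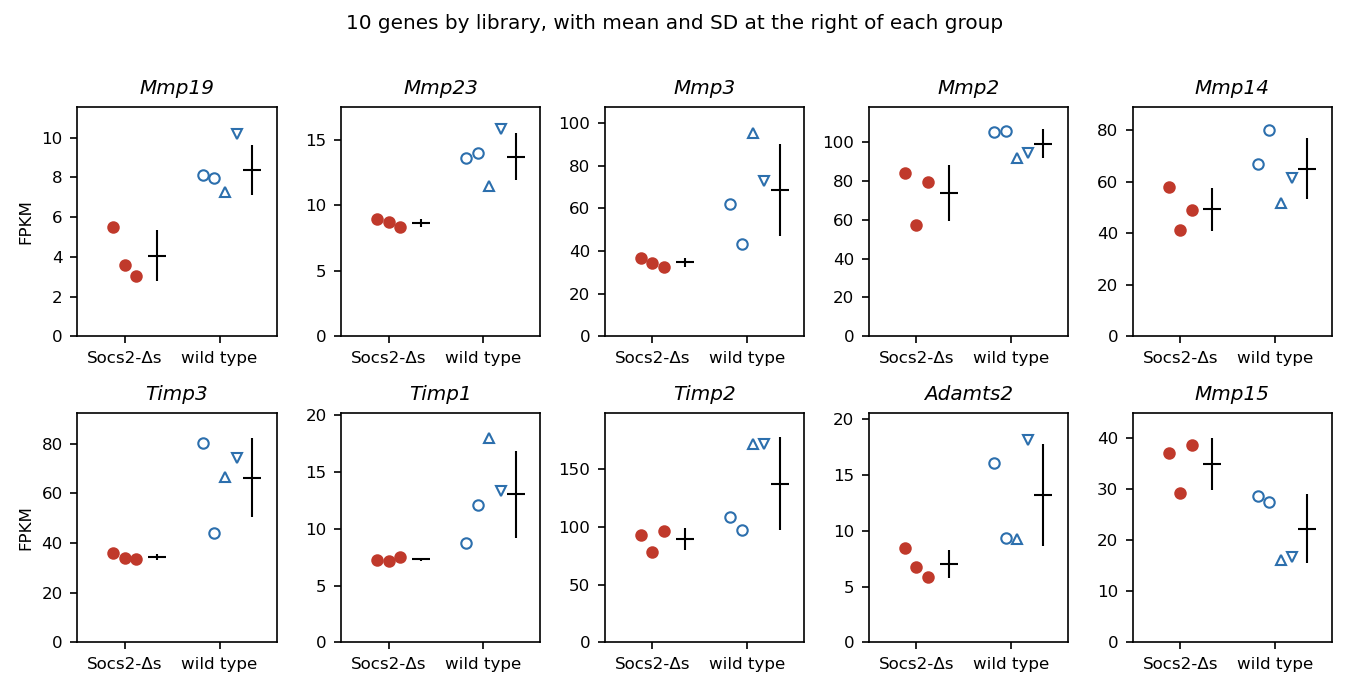
FPKM of 10 genes in each library, Socs2-Δs at left (filled) and wild type at right (open; replicate 3 an upward and replicate 4 a downward triangle), with the mean and SD beside each group. Mmp14 is the one gene of these whose groups overlap, and Mmp15 the one with mutant libraries above wild type.

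All 4 TIMP genes were lower in the Socs2-Δs glands, and none passed the test. Timp3, a matrix-bound inhibitor that also blocks ADAMTS and ADAM proteases, had 35.8, 33.9 and 33.6 FPKM in the Socs2-Δs libraries, against 80.4, 44.1, 66.4 and 74.4 FPKM in the wild-type libraries. All mutant libraries lay below wild-type replicate 2, the lowest of its group. The means were 34.4 ± 1.20 FPKM in Socs2-Δs and 66.3 ± 15.9 FPKM in wild type, with a difference of −0.89 (SE 0.23, adjusted p = 0.159), and −0.77 without wild-type replicates 3 and 4. Timp1, a secreted inhibitor induced by cytokines, had 7.24, 7.20 and 7.49 FPKM in the Socs2-Δs libraries, against 8.77, 12.1, 18.0 and 13.3 FPKM in the wild-type libraries. The mutant values were nearly equal, and wild-type replicates 3 and 4 were the highest. The difference was −0.72 (SE 0.22, adjusted p = 0.193) and, without those replicates, −0.45 (adjusted p = 0.180).

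Timp2, which inhibits Mmp2 and also takes part in its activation by Mmp14, was the most abundant gene described here by mean level, with 92.7, 78.7 and 96.8 FPKM in the Socs2-Δs libraries, against 109, 97.6, 172 and 172 FPKM in the wild-type libraries. The groups did not overlap, but wild-type replicate 2 was within 1 FPKM of the highest mutant library. The difference was −0.58 (SE 0.26, adjusted p = 0.287) and −0.21 (adjusted p = 0.476) without wild-type replicates 3 and 4. Timp4, an inhibitor found in adipose tissue among others, had 18.4, 22.7 and 9.97 FPKM in the Socs2-Δs libraries, against 42.4, 18.2, 10.5 and 310.4 FPKM in the wild-type libraries. Wild-type replicate 4 was 7.31 times the next library; without it the difference was −0.31, against −1.28 (SE 1.01, adjusted p = 0.480).

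Summed over the 23 genes, MMP transcripts came to 248, 195 and 227 FPKM in the Socs2-Δs libraries and 306, 296, 292 and 307 FPKM in the wild-type libraries. The mutant sums were lower in all 3 libraries, and the wild-type sums were close to each other. The 4 TIMPs summed to 154, 142 and 148 FPKM in Socs2-Δs, against 240.2, 172, 267 and 571 FPKM in wild type. The ratio of summed MMP to summed TIMP FPKM was 1.61, 1.37 and 1.53 in the mutant libraries, inside the range of 1.28, 1.72, 1.09 and 0.538 in the wild-type libraries. These sums are transcript levels and not enzyme activity. Timp1, Timp3 and Timp4 lie within introns of the synapsin genes Syn1, Syn3 and Syn2 on the opposite strand. The use of strand in the counting is not stated, and whether such pairs share counted reads was not tested.

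The proteoglycanases of the ADAMTS family cut versican and aggrecan. Adamts5 was the most abundant by mean level, with 18.6, 14.8 and 15.5 FPKM in the Socs2-Δs libraries, against 13.3, 10.3, 22.9 and 58.7 FPKM in the wild-type libraries. Wild-type replicates 3 and 4 were above all mutant libraries and replicates 1 and 2 below them. The difference was −0.35 (SE 0.52, adjusted p = 0.710) over 7 libraries and had the opposite sign, 0.44 (adjusted p = 0.203), without wild-type replicates 3 and 4. Adamts1, its neighbour on chromosome 16 and a gene induced by progesterone in the ovary, had 5.43, 3.20 and 3.20 FPKM in the Socs2-Δs libraries, against 7.36, 5.11, 4.83 and 7.24 FPKM in the wild-type libraries. Socs2-Δs replicates 2 and 3 were lowest and replicate 1 lay inside the wild-type range. Its difference was −0.54 (SE 0.22, adjusted p = 0.266). Adamts9 was at 5.10 to 6.75 FPKM in the Socs2-Δs and 5.52 to 8.45 FPKM in the wild-type libraries, while Adamts8 and Adamts4 averaged 1.95 and 1.15 FPKM over all libraries; groups overlapped for all 3.

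A single library set the mean level of Adamts15, another proteoglycanase, described here because of its values. It had 8.20, 6.35 and 72.9 FPKM in the Socs2-Δs libraries, against 11.7, 11.1, 11.7 and 13.0 FPKM in the wild-type libraries. Socs2-Δs replicate 3 was 5.62 times the next library (9333 recovered reads, against 875 to 1765 elsewhere), and the other mutant libraries were the lowest of all. The difference was 0.41 (SE 0.71, adjusted p = 0.752), and −0.64 without that library. It was the single gene of all tested that reached 10 FPKM and 5 times every other library in Socs2-Δs replicate 3. The genes next to it in the RefSeq order were not raised there: Snx19 had 6.85 FPKM in that library, against 5.14 to 8.43 FPKM elsewhere, and Adamts8 had 2.14 FPKM, against 1.42 to 2.48 FPKM. Wild-type replicate 4 had 60 such genes, among them Mmp12, Timp4 and many liver transcripts such as Alb and Apoa1; the part of other tissue in those values was not tested.

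**Figure D4:**
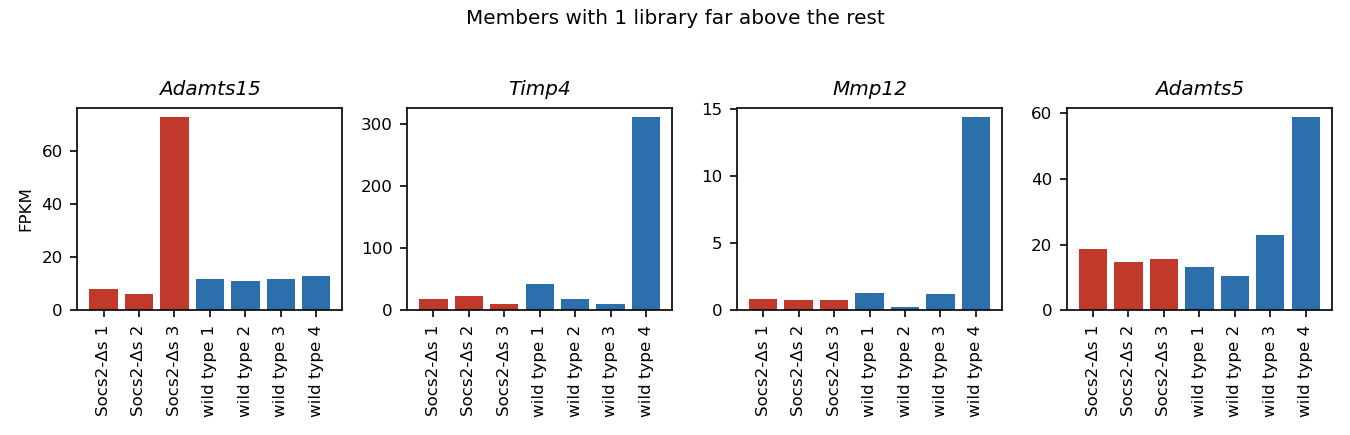
FPKM of Adamts15, Timp4, Mmp12 and Adamts5 in each library, Socs2-Δs bars first and wild type after them. Adamts15 is high in Socs2-Δs replicate 3 alone, while the other 3 genes are highest in wild-type replicate 4.

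The procollagen N-proteinases trim the ends of fibrillar procollagens. Adamts2, the main enzyme of this kind in skin, had 8.42, 6.79 and 5.87 FPKM in the Socs2-Δs libraries, against 16.1, 9.32, 9.31 and 18.2 FPKM in the wild-type libraries. All mutant libraries were below all wild-type libraries, and wild-type replicates 1 and 4 were highest. The means were 7.03 ± 1.29 FPKM in Socs2-Δs and 13.2 ± 4.59 FPKM in wild type, with a difference of −0.78 (SE 0.27, adjusted p = 0.221). Adamts3 ranged over 1.31 to 1.94 FPKM in the Socs2-Δs and 1.07 to 2.93 FPKM in the wild-type libraries and Adamts14 over 0.937 to 1.46 FPKM in the Socs2-Δs and 0.570 to 2.13 FPKM in the wild-type libraries; without wild-type replicates 3 and 4 their differences were −0.51 and −0.49, against −0.17 and −0.021.

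The other ADAMTS and ADAMTSL genes overlapped between the groups, apart from Adamtsl1. Adamts12, which can cut cartilage oligomeric matrix protein, had 5.24, 2.55 and 1.96 FPKM in the Socs2-Δs libraries, against 5.33, 2.46, 4.50 and 3.91 FPKM in the wild-type libraries, and Socs2-Δs replicate 1 was second only to wild-type replicate 1. Adamts7, of the same kind, ranged over 3.19 to 4.44 FPKM in the Socs2-Δs and 1.33 to 6.08 FPKM in the wild-type libraries. Adamts10, which binds fibrillin, had 10.2, 11.4 and 7.66 FPKM in the Socs2-Δs libraries, against 14.5, 10.5, 2.05 and 2.59 FPKM in the wild-type libraries. Wild-type replicates 3 and 4 were below every other library, and the difference was 0.68 over 7 libraries but −0.32 without them. The same replicates were lowest for Adamts7, Adamts14, Adamts17, Adamtsl5, Mmp11 and Mmp15, and highest for Mmp3, Mmp27, Timp1, Timp2 and Adamts5: 7 and 5 of the 33 genes, beside 25.2% and 25.1% of all genes tested. Adamts17 averaged 1.00 and Adamts18 3.35 FPKM over all libraries.

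Among the ADAMTS-like proteins, Adamtsl4, a fibrillin-binding protein of the fibres that hold the lens of the eye, was the most abundant, with 5.96, 4.61 and 3.57 FPKM in the Socs2-Δs libraries, against 9.34, 7.14, 2.29 and 7.62 FPKM in the wild-type libraries. Wild-type replicate 3 was lowest of all libraries; the difference was −0.31 (SE 0.39, adjusted p = 0.646) and −0.71 without wild-type replicates 3 and 4. Adamtsl1 was at 0.956 to 1.03 FPKM in the Socs2-Δs and 1.17 to 1.97 FPKM in the wild-type libraries, without overlap, and its difference was −0.35 (SE 0.18, adjusted p = 0.321). Adamtsl5 was at 3.19 to 4.59 FPKM in the Socs2-Δs and 2.53 to 6.11 FPKM in the wild-type libraries.

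Means were under 1 FPKM for 18 genes, which were not tested: Mmp1a, Mmp1b, Mmp7, Mmp8, Mmp13, Mmp16, Mmp17, Mmp20, Mmp21, Mmp24, Mmp25, Adamts6, Adamts13, Adamts16, Adamts19, Adamts20, Adamtsl2 and Adamtsl3. Mmp1a, Mmp1b and Mmp20, the enamel protease, were listed at 0 in all 7 libraries. Adamts13, the protease of von Willebrand factor, had 0.0255, 0.0856 and 0.0460 FPKM in the Socs2-Δs libraries, against 0.0156, 0.0248, 0 and 0.0488 FPKM in the wild-type libraries, with counts too low to compare. Nearest below the limit of 1 FPKM was Mmp17 with a mean of 0.872, and nearest above it were Adamts17 with 1.00 and Mmp27 with 1.05. In a fit without the limit, the 15 low genes above 0 differed by −0.34 to 0.20 and none was called (lowest adjusted p 0.279, Adamts16, which was the one with an unadjusted p under 0.05).

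Genes that activate, inhibit or are cut by these proteases were taken from 3 lists. Of the plasminogen and MMP activation list, 15 of 19 genes were tested, none was called, and the median difference was −0.40 with 12 lower and 3 higher. Without wild-type replicates 3 and 4 the median was −0.19. Of the 15 genes, 2 lay above and 1 below all wild-type libraries, beside 12.5% and 10% of all genes tested. Counts this near those shares do not set the list apart. Among the 12 lower genes, Plg and Pzp, both liver transcripts, reached 1 FPKM on average only through wild-type replicates 3 and 4, where Pzp had 0.903 and 8.75 FPKM. The MMP-activating convertase Furin was above all wild-type libraries with 33.6, 29.3 and 32.4 FPKM in the Socs2-Δs libraries, against 23.3, 22.4, 13.6 and 16.1 FPKM in the wild-type libraries (difference 0.75, adjusted p = 0.174), and so was the related Pcsk7 (0.74, adjusted p = 0.187). The other convertases of the list, Pcsk5 (−0.40) and Pcsk6 (−0.35), were lower in Socs2-Δs and overlapped between the groups. The serine protease inhibitor Serpine2 was below all wild-type libraries, with 8.81, 11.0 and 9.89 FPKM in the Socs2-Δs libraries, against 11.7, 16.6, 18.3 and 44.6 FPKM in the wild-type libraries (difference −0.96, adjusted p = 0.261). The urokinase gene Plau (−0.21) and the MMP inhibitor Reck (−0.25) overlapped between the groups. Of the ADAM proteases, 10 of 12 were tested, 5 lower and 5 higher, with a median of −0.081 and none called. Adam23, which lacks protease activity, was the 1 of these 10 below all wild-type libraries (−0.69, adjusted p = 0.158 by limma). That is the share of all genes tested (10%). Without wild-type replicates 3 and 4 the ADAM gene Adam33 was called lower, at −0.81 (adjusted p = 0.0414), beside 0.68% of all genes called lower.

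Of the matrix proteins that these enzymes cut, 15 of 17 were tested, 13 lower and 2 higher, with a median of −0.40 and none called. The versican gene Vcan had 3.28, 1.56 and 1.70 FPKM in the Socs2-Δs libraries, against 4.85, 4.47, 6.03 and 3.57 FPKM in the wild-type libraries, without overlap (difference −0.87, adjusted p = 0.167). Decorin (Dcn, −1.16), lumican (Lum, −0.96) and nidogen (Nid1, −0.85) also lay below all wild-type libraries, with adjusted p of 0.227, 0.239 and 0.210 by limma. These were 4 of the 15 with Vcan, beside 10% of all genes tested. The fibrillar collagen genes Col1a1 (0.086), Col1a2 (−0.41) and Col3a1 (−0.41) overlapped between the groups. Without wild-type replicates 3 and 4 the median of the list was −0.54.

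Markers of the cell types of the gland were summed to set beside these levels. Fibroblast markers were lower for 9 of 10 tested genes, 8 of them without overlap, and summed to 782 to 1067 FPKM in the Socs2-Δs and 1252 to 2197 FPKM in the wild-type libraries (median difference −0.95). Lum, Dcn and Col1a1 are in this list and in that of the matrix proteins, so the lists are not independent. Adipocyte markers were lower for 10 of 10, 6 without overlap, with sums of 3596 to 6840.4 FPKM in Socs2-Δs and 10824.5 to 23198 FPKM in wild type (median −1.45). Fabp4 and Cfd made up most of these sums, while Plin1, Lep, Lipe and Pnpla2 overlapped between the groups. Macrophage markers lay below wild type in 10 of 10, with sums of 355 to 437 FPKM in Socs2-Δs and 506 to 1005 FPKM in wild type (median −0.82). Luminal epithelial markers were higher for 10 of 10, 4 without overlap, with sums of 1438 to 2160.2 FPKM in Socs2-Δs and 769 to 1734 FPKM in wild type (median 0.58). Alveolar secretory markers were higher for 8 of 8, 7 without overlap (median 2.50). Of all genes tested, 10% lay below and 12.5% above wild type without overlap. None of these markers was called over all 7 libraries, and no list gene found was at 0 in all of them. When wild-type replicates 3 and 4 were left out, 5 alveolar markers were called higher (Csn3, Wap, Lalba, Glycam1 and Xdh) and the adipocyte markers Cidec and Pparg lower (adjusted p = 0.0311 and 0.0405 by limma). Of all genes tested, 1.26% were called higher and 0.68% lower in that fit. The medians were then −0.57 for fibroblast, −1.10 for adipocyte, −0.49 for macrophage, 0.40 for luminal and 2.45 for alveolar markers. The part of these cell types in the levels of the MMP, TIMP and ADAMTS genes was not tested.

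**Figure D5:**
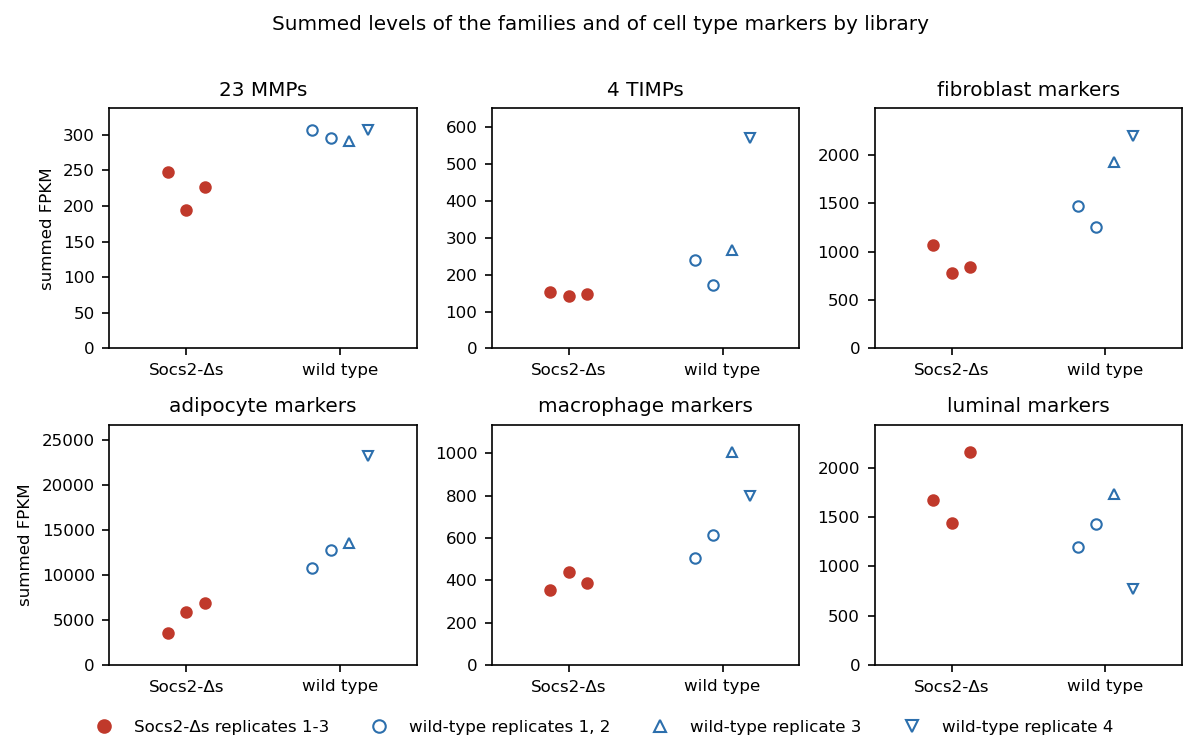
Summed FPKM of the 23 MMPs, the 4 TIMPs and 4 marker lists in each library, Socs2-Δs at left (filled) and wild type at right (open). MMP, TIMP, fibroblast, adipocyte and macrophage sums are lower in every Socs2-Δs library than in any wild-type library, whereas luminal sums overlap.

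None of the genes of the other marker lists was called over all 7 libraries. Their medians were −0.16 for neutrophil, 0.0032 for basal and myoepithelial, −0.22 for endothelial, −0.17 for pericyte, −0.79 for mast cell and 0.16 for lymphocyte markers. With wild-type replicates 3 and 4 left out these were 0.013, −0.070, −0.28, −0.11, −0.59 and 1.08 in the same order, and none of their genes was called. Lymphocyte markers summed to 9.22, 204 and 9.30 FPKM in the Socs2-Δs libraries and 6.89, 13.5, 10.9 and 275 FPKM in the wild-type libraries. Socs2-Δs replicate 2 and wild-type replicate 4 stood far above the rest, so the lymphocyte medians do not describe the groups. Transcripts of salivary gland, liver and skeletal muscle had medians of −1.92, −2.30 and −1.03, which were −0.14, −0.023 and 0.053 without wild-type replicates 3 and 4. In the salivary list, Bpifa2, Prol1, Smr3a, Dcpp1 and Dcpp2 reached 1 FPKM on average only through those replicates. So did Apoa1, Ttr, Fgb, Fga and Ahsg in the liver list. The salivary and liver medians of both fits follow from these genes and add nothing. In the fit without those replicates, Amy1 of the salivary list was the one gene of these 3 lists called, lower. Amy1 had 28.2 to 82.0 FPKM in the libraries of that fit, where the rest of the salivary list was under 1 FPKM, so that Amy1 did not follow its list. Over all 7 libraries Trf was the 1 higher gene of 9 in the liver list. It had 3603 to 4929 FPKM in Socs2-Δs and 583 to 1401 FPKM in wild type. Kit (0.42) was the 1 higher of 6 mast cell markers. Of 4 neutrophil markers tested, 2 were higher, Csf3r (0.13) and Ltf (1.68). Ltf lay above all wild-type libraries, beside 12.5% of all genes tested.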

How the data were processed

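Messenger RNA of whole mammary gland was sequenced in 7 of the 16 samples; poly(A) RNA went through Trizol, a column and a TruSeq kit, per the labels' protocols. The build mm9 and the tools CASAVA, Bowtie2, STAR and DESeq2 are named in the submitters' processing notes, with no version or role; for annotation, filters and strand use the sources used here state nothing. The deposited values are the authors' FPKM per gene, with symbols. A mean of 1 FPKM or more across all 7 libraries qualified 13392 genes, which were compared on log2(FPKM + 1), a scale that shrinks differences of low genes, with limma 3.58.1 in R 4.3.3 (empirical Bayes with trend, no covariate), Socs2-Δs minus wild type, with Benjamini-Hochberg adjustment over all of them and a threshold of 0.05. The fit was tested on simulated data. Depth came from the FPKM steps of low values, which gave whole reads in all 21044 rows above 0 (tolerance 0.02 of a read).

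All tested genes of the families are named; the value of every library is given for those with an unadjusted p under 0.05, those called in either fit and the most abundant of each role. Adamts15 and Timp4 were added after their values were seen. This rule did not cover the genes of the lists, and those named, such as Furin, Serpine2 and Vcan, were not chosen blind to their values. The 17 gene lists (3 of related proteins, 14 of tissue and cell type markers) and the genes themselves were chosen with earlier results of these data known. Adgre1 was found under its older symbol Emr1, and Ly6g was not found. Libraries were grouped by title. The replicate numbers were not used to pair the libraries, except in an alternative with a replicate block. Alternatives were other pseudocounts, filters, scalings, weights and left-out libraries. Gene order and promoters came from RefSeq tables of GRCm38.p6, a later build than mm9, and were matched by symbol or gene ID; motifs were sought with Python 3.11.15.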

Additional observations from a re-analysis of the deposited data

Results flagged for a closer look

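In 3 of 34 wild-type groups of 4 libraries (the 33 tested genes and Socs2), 1 library lay farther from the other 3 than Dixon's 95% critical value allows; chance gives about 1 such group in 20. Timp4 had 310.4 FPKM in wild-type replicate 4, against 10.5 to 42.4 FPKM in the other wild-type libraries and 9.97 to 22.7 FPKM in the Socs2-Δs libraries. Mmp12 had 14.4 FPKM in the same library, against 0.277 to 1.30 FPKM in the other wild-type and 0.775 to 0.852 FPKM in the Socs2-Δs libraries. Mmp27 had 1.62 FPKM in wild-type replicate 3, against 1.03 to 1.10 FPKM in the other wild-type libraries. Both libraries also held liver transcripts (Alb at 1136.5 FPKM in replicate 4 and 80.9 FPKM in replicate 3), whose part in these values was not tested.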

How the results depend on the processing

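Of 33 tested genes, 21 kept their direction under every one of the 18 alternatives that tested them, and 12 changed it under at least 1. The filter of 5 FPKM kept only 17 of the 33. The replicate block gave the same estimates as leaving out wild-type replicate 4. The term for wild-type replicates 3 and 4 gave the same estimates as leaving both out. The count of genes called over the whole table (6) was 1 with a pseudocount of 0.1 and without a filter, 0 with a filter of 5 FPKM, 28 after quantile normalization, 1371 with array weights, 260 without wild-type replicates 3 and 4, 0 with a term for those replicates and 0 to 31 when 1 library was left out. Of the 33, 6 were called with array weights, 1 without wild-type replicates 3 and 4 and 0 otherwise. The median difference (−0.31) was −0.11 without a filter and −0.54 with a filter of 5 FPKM. The count without overlap (11) was 7 after quantile normalization and 20 without wild-type replicates 3 and 4. Mmp27 and Adamtsl1 are among the 11 and the 20. Of all genes tested, 10% lay below and 12.5% above wild type over 7 libraries. Without wild-type replicates 3 and 4 these shares were 18.1% and 21.8%. The share after quantile normalization was not computed. With array weights 2 plasminogen, 2 ADAM and 4 matrix list genes were called, of 15, 10 and 15 tested, beside 5.5% of all genes called lower and 4.74% higher. Without wild-type replicates 3 and 4, 1 ADAM gene was called, lower, beside 0.68% of all genes. Whether replicate numbers pair the libraries cannot be told from so few libraries. Same-numbered libraries' deviations correlated at 0.350, −0.104 and 0.283, and the best partners of Socs2-Δs replicates 1 to 3 were wild-type replicates 1, 4 and 3. With the replicate block 0 genes were called and 0 of the 33, and Adamts5 was 0.14 and Adamts8 −0.0068. Directions also reversed with a pseudocount of 0.1 (Adamts14 0.052), median-of-ratios scaling (Adamts4 2.18e-04), quantile normalization (Adamts8 −0.0016), array weights (Mmp12 0.060, Adamts5 0.32, Adamts8 −0.26, Adamts7 −0.41, Adamts10 −0.0016, Adamts17 −0.012, Adamts15 −0.20), and without wild-type replicates 3 and 4 or with a term for them (Mmp12 0.075, Adamts5 0.44, Adamts8 −0.16, Adamts7 −0.49, Adamts10 −0.32). Leaving out 1 library at a time gave −0.054 to 0.20 for Adamts8, −0.084 to 0.47 for Mmp9, −0.40 to 0.19 for Adamts18, −0.64 to 1.02 for Adamts15, −0.18 to 0.15 for Adamts14, −0.12 to 0.12 for Adamts4, −0.26 to 0.075 for Adamtsl5, −0.089 to 0.45 for Adamts7 and −0.66 to 0.14 for Adamts5. Apart from the left-out libraries, the causes were not tested. Mmp27 had 26 to 57 recovered reads in a library, so that counting error is a limit for low genes such as this one.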

Other observations

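St14 encodes matriptase, a serine protease anchored at the surface of epithelial cells, and lies close to Adamts15 in the RefSeq gene order. It was looked at only as a neighbour, and was chosen after its values were seen. It had 67.6, 60.5 and 69.8 FPKM in the Socs2-Δs libraries, against 41.2, 46.6, 40.0 and 19.3 FPKM in the wild-type libraries. Every mutant library was above every wild-type library, and wild-type replicate 4 was lowest. The difference was 0.89 (SE 0.30, adjusted p = 0.214 by limma), and 0.58 (adjusted p = 0.0776) without wild-type replicates 3 and 4.

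Plg, the plasminogen gene, which the liver expresses, had 0.0155, 0.0469 and 0.0168 FPKM in the Socs2-Δs libraries, against 0.0142, 0.0302, 1.21 and 7.99 FPKM in the wild-type libraries. It was above 1 FPKM in wild-type replicates 3 and 4 alone, the libraries with the most Alb. Adam33, a protease gene of mesenchymal cells, had 3.18, 3.48 and 3.38 FPKM in the Socs2-Δs libraries, against 7.21, 6.06, 0.549 and 0.682 FPKM in the wild-type libraries. The mutant libraries lay between wild-type replicates 1 and 2 above and replicates 3 and 4 below, so that the sign of the difference depends on which wild-type libraries are used.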
